A study of Rattus norvegicus with 8 samples.

Results

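Transcripts of the insulin-like growth factor (IGF) axis and of the myostatin pathway were examined in tibialis anterior, a hind limb muscle made mostly of fast fibres, from 8 adult Sprague-Dawley rats. The 10 genes were Igf1, Igf2, Igf1r, Igfbp3, Igfbp4, Igfbp5, Igfbp6, Mstn, Acvr2b and Fst, taken as every probe set that carries one of these symbols alone in the platform annotation. They had 23 of the 31099 probe sets on each array, and 19 of the 23 passed the filter on low values. That filter was set on the mean log2 value, at the level of an intensity of about 22.4. In the hyperthyroid group, 4 rats had received intraperitoneal triiodothyronine (T3), dosed by weight at 25 µg per 100 g once in 2 days over 6 weeks, and were killed 24 hours after the final injection. The 4 control rats are labelled as untreated, and no vehicle injection is named. Rats weighed 200 ± 40 g at the start, each group held 3 males and 1 female, and each rat gave 1 array. The comparison asked how these growth-controlling transcripts differ in a limb muscle after prolonged thyroid hormone excess.

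IGF1 and IGF2 are secreted growth factors that signal through the receptor encoded by Igf1r and promote muscle protein synthesis through AKT and mTOR. The IGF binding proteins carry the factors outside the cell and control how much of them reaches the receptor, and IGFBP5 is a major binding protein of skeletal muscle. Myostatin, encoded by Mstn, is a secreted member of the TGF-beta family that restrains muscle mass. It binds the activin receptor encoded by Acvr2b, and follistatin, encoded by Fst, captures it outside the cell.

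The promoters of 3 of the genes are shown first, because T3 acts through nuclear receptors that recognise the half-site AGGTCA: Igfbp5 had the lowest p of the 10 genes, and Igf1 and Igfbp6 carried the half-site. The sequences are RefSeq's (build GRCr8), run 5′ to 3′ on the strand of the gene from 150 bases before to 30 bases after its annotated start, and capitals mark the half-site. They lie at chr9:81914158-81914337 on the minus strand for Igfbp5, at chr7:24172382-24172561 on the plus strand for Igf1 and at chr7:135154769-135154948 on the plus strand for Igfbp6.
Igfbp5: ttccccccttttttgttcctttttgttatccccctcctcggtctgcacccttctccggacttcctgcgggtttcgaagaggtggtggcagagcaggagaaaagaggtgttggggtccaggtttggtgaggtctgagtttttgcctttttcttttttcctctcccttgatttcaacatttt
Igf1: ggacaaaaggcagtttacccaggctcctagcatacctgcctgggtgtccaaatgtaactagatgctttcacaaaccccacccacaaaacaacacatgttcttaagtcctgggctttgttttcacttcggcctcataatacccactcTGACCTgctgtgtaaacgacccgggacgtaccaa
Igfbp6: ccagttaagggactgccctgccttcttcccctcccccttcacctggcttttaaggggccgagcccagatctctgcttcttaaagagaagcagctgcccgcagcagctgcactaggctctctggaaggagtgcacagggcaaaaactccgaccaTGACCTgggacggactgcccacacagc
The half-site was searched on both strands over 250 bases before to 50 bases after the start. Windows were at hand for 8 of the 10 genes (not Mstn or Fst). Igf1 and Igfbp6 each held 1 match, read on the opposite strand as TGACCT, and the Igfbp5 window held none. Of 33469 promoter windows of the same length, 16.2% held the half-site. A match describes letters in a window and is not evidence of binding.

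Arrays differed from one another in ways that touch these genes. Over all kept probe sets, control replicate 11 was distant from the rest on principal component 1 (94.7, against a range of -25.3 to 23.9) while on component 2 the distant array was control replicate 9 (-87.1, against a range of -8.96 to 26.8). The fast-fibre marker list, which defines the labelled muscle, was abundant on every array, with a summed intensity of 9 measured genes of 266539 to 323361 on hyperthyroid and 327257 to 385212 on control arrays. The connective tissue markers (10 of 10 measured) summed to 5315 to 35685 and 3502 to 23916, and were highest on hyperthyroid replicate 5 and control replicate 11. The slow-fibre markers (10 of 10 measured) summed to 1615 to 10148 and 5133 to 48674, and were highest on control replicates 7 and 11. Mean log2 levels of the connective tissue and slow-fibre lists differed between the groups by 0.29 and -2.49 (exact permutation p = 0.714 and 0.114, two-sided, 0.889 and 0.286 adjusted over 10 marker lists). The smallest p-values were those of smooth muscle (-0.39, exact permutation p = 0.0286), fast fibre (-0.30, exact permutation p = 0.0571) and T3 response genes (0.57, exact permutation p = 0.0571), each 0.19 after adjustment. The fast-fibre sums did not overlap between the groups. In a piece of whole muscle, fewer cells of a type and less RNA per cell cannot be told apart.

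None of the 10 genes passed the threshold, an adjusted p under 0.05 over all 18625 kept probe sets (limma), and 0.0322% of all kept probe sets did. Before adjustment, 3 of the 19 kept probe sets of these genes had a limma p under 0.05, where 9.68% of all kept probe sets did. They were 2 of Igfbp5, higher in the hyperthyroid group (4.91% of all), and 1 of Igfbp3, lower (4.76% of all). The groups did not overlap for the same 3 probe sets, 2 higher and 1 lower, where 6.15% of all did not overlap (2.99% higher and 3.16% lower). Fold changes were above 0 for 11 of the 19 and below 0 for 8, with a log2 median of 0.046, beside -0.0077 over all kept probe sets. Fold changes are hyperthyroid over control on the scale of log2(intensity + 3.41), with limma's standard error, and each gene is described first by its kept probe set of highest mean.

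**Figure D1:**
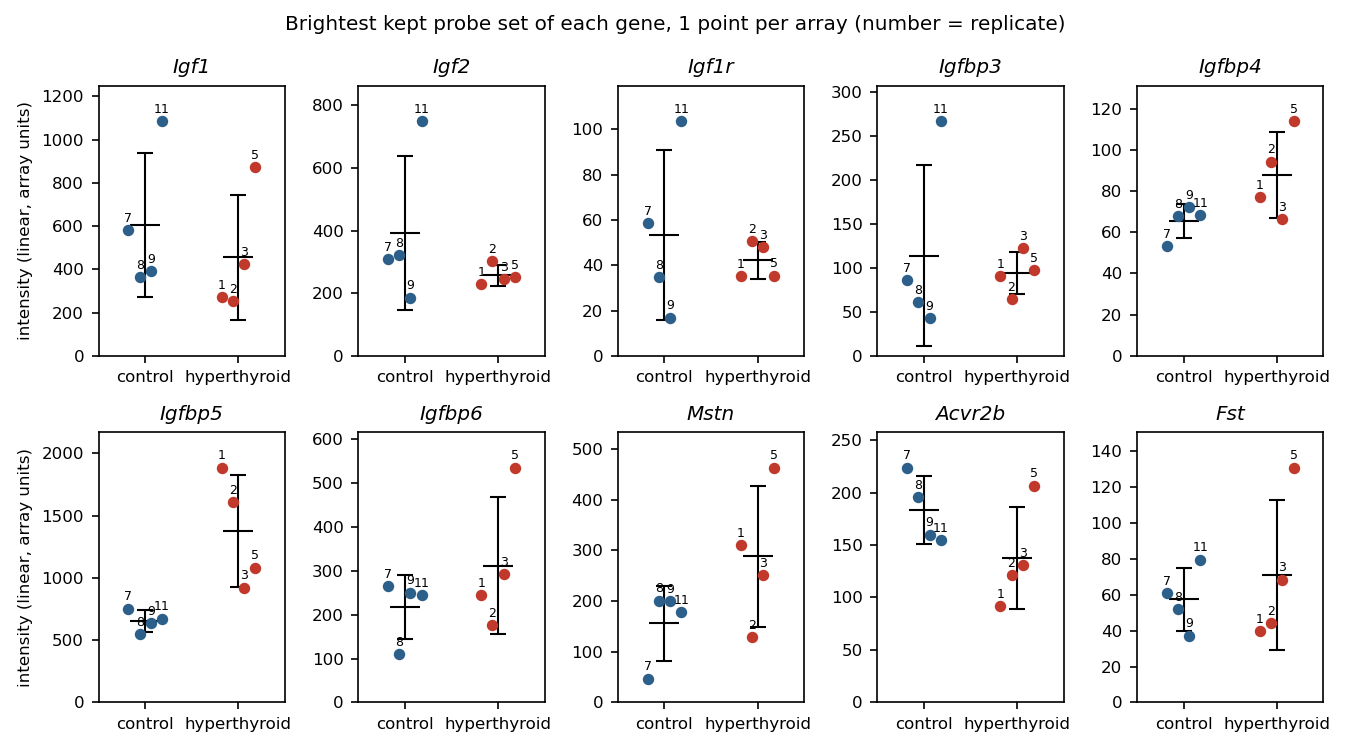
Intensity of the brightest kept probe set of each of the 10 genes on the 4 control (blue) and 4 hyperthyroid (red) arrays, with the replicate number beside each point and bars at mean ± SD. Igfbp5 is the gene whose hyperthyroid arrays all lie above the controls, and control replicate 11 or hyperthyroid replicate 5 is the highest array for 8 of the 10 genes.

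Igfbp5 showed the clearest difference of the 10. Probe set 1370960_at was at 1884, 1609, 921 and 1082 on hyperthyroid replicates 1, 2, 3 and 5. The controls had 753, 548, 638 and 673 on replicates 7, 8, 9 and 11. Every hyperthyroid array lay above every control array, and the hyperthyroid arrays were spread more widely. The mean intensity was 1374 ± 449 against 653 ± 85.2 (SD, n = 4 each), a ratio of 2.10. The log2 fold change was 1.02 ± 0.21 (95% interval 0.57 to 1.47), a 2.03-fold difference on the fitted scale. The limma adjusted p was 0.165, the smallest of the 19 kept probe sets. With arrays centred on their medians or scaled to the hybridization controls the log2 fold change was 1.24 or 1.34 and passed (limma adjusted p = 0.046 and 0.0185). The median of all kept probe sets moved to 0.21 and 0.30 under these scalings, and relative to it Igfbp5 stood at 1.03 and 1.04. Without the variance trend the log2 fold change was still 1.02, with a limma adjusted p of 0.538. With hyperthyroid replicate 2 left out, it was 0.92 (limma adjusted p = 0.39).

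The other probe sets of Igfbp5 did not all show this difference. On 1397830_at the hyperthyroid arrays were at 136, 83.7, 87.1 and 115 (replicates 1, 2, 3 and 5) and the controls at 22.6, 52.2, 66.3 and 66.3 (replicates 7, 8, 9 and 11). The groups again did not overlap, with a log2 fold change of 1.05 ± 0.36 (limma adjusted p = 0.385). On 1396152_s_at, which carries the same target sequence accession in the annotation and so is not an independent reading, the groups overlapped and the log2 fold change was 0.71 ± 0.38 (95% interval -0.10 to 1.52). The second brightest probe set, 1387348_at, read 1049, 607, 457 and 632 on the hyperthyroid and 567, 466, 447 and 885 on the control arrays. Its groups overlapped over most of their range, and the log2 fold change was 0.20 ± 0.26 (95% interval -0.35 to 0.75, limma adjusted p = 0.83). The fifth probe set, 1387347_at, lay under the filter, at 2.48 to 59.4 on hyperthyroid and 1.66 to 7.20 on control arrays. When all probe sets of the gene were averaged, Igfbp5 had 0.81 ± 0.30 (limma adjusted p = 0.442).

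**Figure D2:**
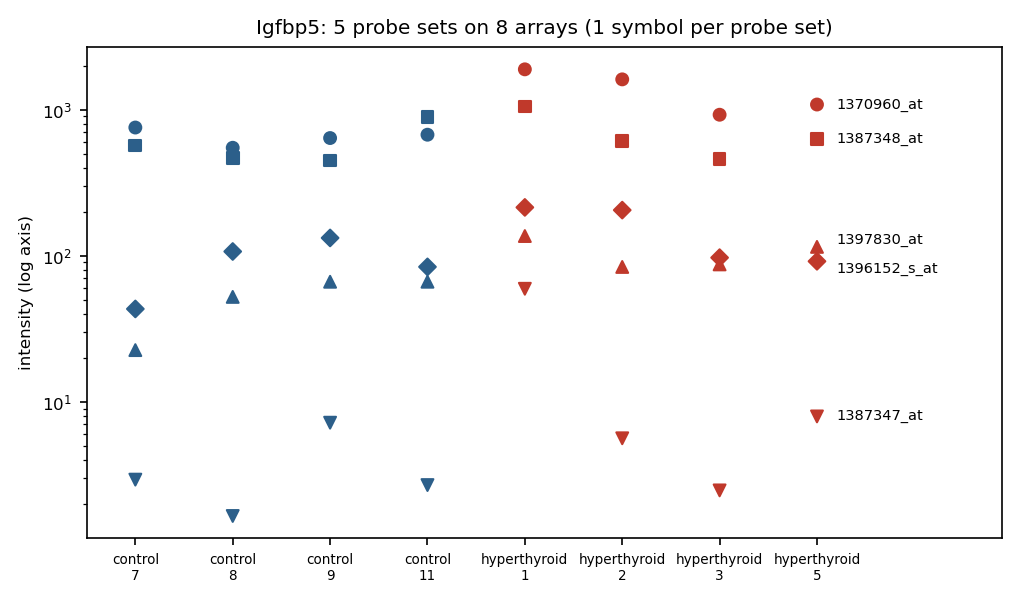
Intensity (log axis) of the 5 probe sets of Igfbp5 on each of the 4 control (blue) and 4 hyperthyroid (red) arrays, 1 symbol per probe set. The groups separate for 1370960_at and 1397830_at, while those of 1387348_at overlap.

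Of the growth factors, Igf1 had group means that differed by less than the SD within either group. Probe set 1370333_a_at was at 273, 252, 424 and 872 on hyperthyroid replicates 1, 2, 3 and 5 and at 583, 364, 393 and 1085 on control replicates 7, 8, 9 and 11. The highest arrays were 1 of each group, control replicate 11 and hyperthyroid replicate 5, and the groups overlapped. The means were 455 ± 288 and 606 ± 334 (SD, n = 4 each), with a log2 fold change of -0.45 ± 0.38 (95% interval -1.28 to 0.37, limma adjusted p = 0.731). Without hyperthyroid replicate 5 the value was -0.83 (limma adjusted p = 0.515), and without control replicate 11 it was -0.13. The 2 other probe sets of Igf1 had -0.31 ± 0.34 and 0.0062 ± 0.40. All 3 had their highest value on control replicate 11 and the next on hyperthyroid replicate 5.

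Igf2, a growth factor most active before birth, was at 228, 303, 244 and 251 on the hyperthyroid arrays (1367571_a_at). The controls had 308, 322, 186 and 749 on replicates 7, 8, 9 and 11. The hyperthyroid arrays were close together, and the control mean rested on replicate 11. The log2 fold change was -0.42 ± 0.32 (95% interval -1.11 to 0.26, limma adjusted p = 0.693), and -0.050 without control replicate 11. The 3 other probe sets of Igf2, which share 1 target sequence accession, lay under the filter. On 1388252_at, 1 of these, the hyperthyroid arrays ran from 3.25 to 19.7 and the controls from 29.2 to 40.7, without overlap. On another of them, 1371206_a_at, the order was the other way for the means (22.0 and 3.86), and values this low are read with little precision.

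The receptor gene Igf1r was dim. Probe set 1368123_at was at 35.3, 50.7, 47.9 and 35.4 on hyperthyroid and at 58.6, 34.8, 16.9 and 104 on control arrays, and the hyperthyroid values fell inside the control range. The log2 fold change was -0.075 ± 0.51 (95% interval -1.16 to 1.01, limma adjusted p = 0.975), and it turned to 0.31 without control replicate 11. Relative to the median of all kept probe sets it was 0.033, -0.068 and -0.081 under 3 other scalings of the arrays. The other probe set, 1392492_at, gave -0.97 ± 0.68 with 1 hyperthyroid array at 2.90.

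The remaining binding proteins gave 3 different pictures. Igfbp3, which with the acid-labile subunit carries most IGF in the blood, had 90.9, 64.4, 123 and 97.2 on the hyperthyroid and 85.8, 61.1, 42.5 and 267 on the control arrays of probe set 1386881_at. The groups overlapped, control replicate 11 was far above the rest, and the log2 fold change was 0.046 ± 0.45 (95% interval -0.93 to 1.02). Its other probe set, 1367652_at, read 57.9, 9.41, 61.9 and 61.5 against 94.1, 105, 69.5 and 121. Here all hyperthyroid arrays lay below all controls, with a log2 fold change of -1.21 ± 0.49 (limma adjusted p = 0.466). Without hyperthyroid replicate 2, the lowest array, the value was -0.63 (limma adjusted p = 0.646), and the probe sets of Igfbp3 differ in sign.

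Igfbp4, a binding protein that holds IGF away from its receptor until it is cleaved, had 77.1, 94.3, 66.4 and 114 on hyperthyroid arrays. The controls had 53.1, 67.7, 72.3 and 68.4. Of the hyperthyroid arrays, 3 of 4 lay above the highest control and replicate 3 lay within the control range. The log2 fold change was 0.39 ± 0.29 (95% interval -0.23 to 1.01, limma adjusted p = 0.689).

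Igfbp6, which prefers IGF2, had 244, 176, 292 and 535 on hyperthyroid and 265, 109, 250 and 244 on control arrays of 1372168_s_at. Hyperthyroid replicate 5 was the highest array and control replicate 8 the lowest, and the others of both groups overlapped. The log2 fold change was 0.47 ± 0.34 (95% interval -0.25 to 1.20, limma adjusted p = 0.676), and 0.18 without either hyperthyroid replicate 5 or control replicate 8. The second probe set, 1387625_at, gave 0.61 ± 0.45 and ordered its highest and lowest arrays the same way.

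**Figure D3:**
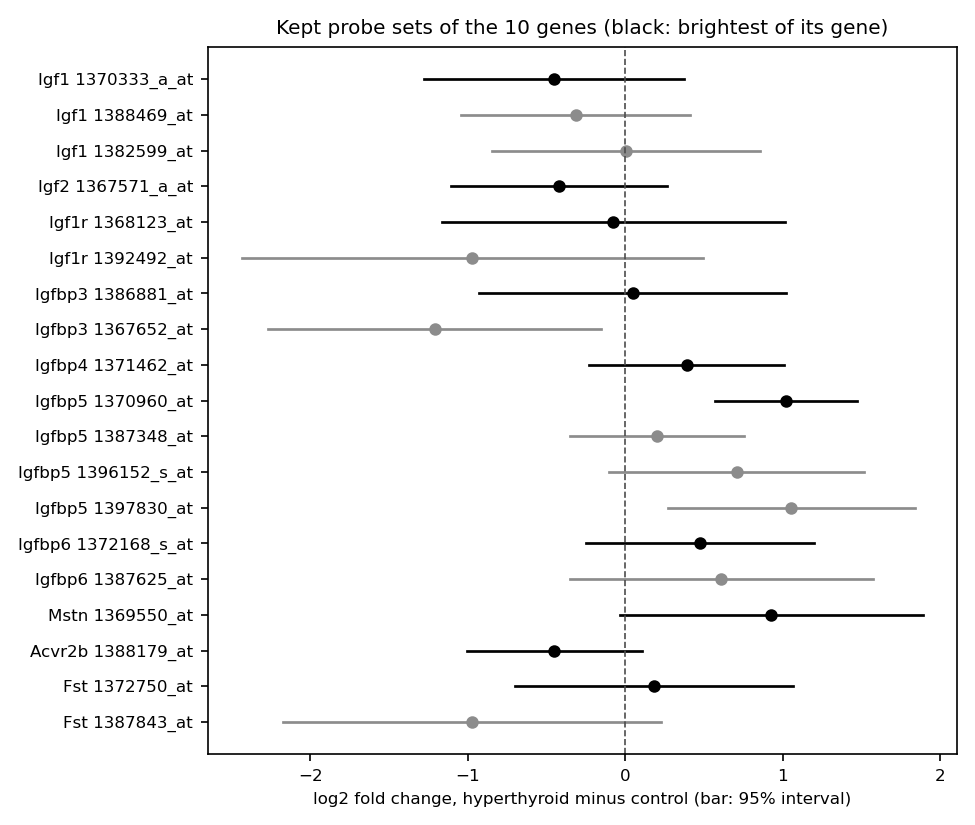
Log2 fold change (hyperthyroid minus control, 4 arrays each) of the 19 kept probe sets with limma's 95% interval, the brightest probe set of each gene in black. The intervals of 3 probe sets exclude 0: Igfbp5 1370960_at (1.02), Igfbp5 1397830_at (1.05) and Igfbp3 1367652_at (-1.21).

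In the myostatin pathway, Mstn itself was at 310, 129, 251 and 463 on hyperthyroid replicates 1, 2, 3 and 5, and at 46.8, 200, 200 and 178 on control replicates 7, 8, 9 and 11 (1369550_at, its only probe set). The hyperthyroid arrays exceeded the highest control in 3 of 4 rats, and replicate 2 lay within the control range. Means were 288 ± 139 and 156 ± 73.7 (SD, n = 4 each), and the log2 fold change was 0.93 ± 0.45 (95% interval -0.034 to 1.89, limma adjusted p = 0.532). Control replicate 7 was far below the other controls, and without it the value was 0.44 (limma adjusted p = 0.726). That array also had the highest slow-fibre marker sum, 48674, and hyperthyroid replicate 5, with the highest Mstn, had the lowest, 1615. The relation of Mstn to these markers, over all 8 arrays and over 6 of them, is given with those of the other genes.

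The receptor gene Acvr2b was at 91.6, 121, 131 and 206 on hyperthyroid and at 224, 196, 160 and 154 on control arrays (1388179_at). Of the hyperthyroid arrays 3 of 4 lay below the lowest control, and replicate 5 lay among the controls. The log2 fold change was -0.45 ± 0.26 (95% interval -1.01 to 0.11, limma adjusted p = 0.601), with -0.66 without hyperthyroid replicate 5 and -0.28 without hyperthyroid replicate 1 (limma adjusted p = 0.492 and 0.803).

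The antagonist Fst had 39.9, 44.3, 68.4 and 131 on hyperthyroid and 61.0, 52.0, 37.2 and 79.6 on control arrays (1372750_at). The groups overlapped, and hyperthyroid replicate 5 was the highest. The log2 fold change was 0.18 ± 0.41 (95% interval -0.70 to 1.06, limma adjusted p = 0.923), and it turned to -0.15 without that array. The second probe set, 1387843_at, gave -0.97 ± 0.56 with overlapping groups (limma adjusted p = 0.601), so that the probe sets of Fst also differ in sign.

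The brightest kept probe sets of Igf1, Igfbp6, Fst and Igfbp3 were higher on arrays with more connective tissue RNA. None of these relations passed after adjustment. They were computed after the values had been seen, over the 8 arrays, against the mean log2 level of 10 connective tissue markers. Igf1 had Pearson's r = 0.83 (exact permutation p = 0.0117) and Spearman's rho = 0.88 (exact permutation p = 0.00724). Its r was 0.92 when the arrays of most extreme marker level, hyperthyroid replicate 5 and control replicate 8, were left out. Igfbp6 had r = 0.87 (exact permutation p = 0.00523) and rho = 0.86 (exact permutation p = 0.0107), and r was 0.57 without those arrays. Fst had r = 0.78 and rho = 0.76 (exact permutation p = 0.0212 and 0.0368), with r = 0.84 without them. Igfbp3 had r = 0.66 and rho = 0.74 (exact permutation p = 0.0704 and 0.0458), with r = 0.84 without them. Igfbp5 had r = -0.010 and rho = 0.095 (exact permutation p = 0.981 and 0.84), with r = -0.66 without them. The Benjamini-Hochberg values for r, over all 30 relations computed, were 0.0973 for Igf1, 0.0785 for Igfbp6, 0.106 for Fst and 0.264 for Igfbp3 (0.107, 0.107, 0.229 and 0.229 for rho). No relation was computed for the other probe sets. Fst 1387843_at was lowest, at 11.2, on hyperthyroid replicate 3, where the marker level was 9.58. Igfbp3 1367652_at was at 105 on control replicate 8, the array of lowest marker level (7.62). Both of these probe sets were highest on control replicate 11 (marker level 10.4).

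Control replicates 7 and 11 formed a separate cluster by slow-fibre markers (mean log2 level 11.8 and 11.1, the others 5.67 to 8.37). Over all 8 arrays, that cluster included, Fst had r = -0.24 and rho = -0.31 with these markers (exact permutation p = 0.573 and 0.462). Mstn had r = -0.82 and rho = -0.74 (exact permutation p = 0.013 and 0.0458), and Igf1 had r = 0.22 and rho = 0.14 (exact permutation p = 0.604 and 0.752). The Benjamini-Hochberg values over 30 relations were 0.737 and 0.77 for Fst, 0.0973 and 0.229 for Mstn and 0.737 and 0.967 for Igf1. Igfbp4 had r = -0.73 and rho = -0.40 over the 8 arrays (exact permutation p = 0.0421 and 0.327, 0.18 and 0.754 adjusted). For Igf2, Igf1r, Igfbp3, Igfbp5, Igfbp6 and Acvr2b, r lay between -0.30 and 0.57. The relations were also taken within the other 6 arrays, a choice made after the values were seen. These were all 4 hyperthyroid arrays and control replicates 8 and 9. The permutations, over 8 or 6 arrays, moved values freely between the groups. Their p-values therefore do not separate the marker level from the treatment, and the adjustment over 30 does not cover the choice of arrays. Within these 6 arrays, Fst (1372750_at) was lower where the slow-fibre markers were higher, unlike over all 8. It had r = -0.99 (exact permutation p = 0.00139, 0.0417 adjusted over 30) and rho = -1 (exact permutation p = 0.00278, 0.0833 adjusted). Its r was -0.97 without hyperthyroid replicates 3 and 5, the most extreme arrays. The second probe set of Fst, 1387843_at, did not follow this order, and its relation was not computed. From the lowest to the highest slow-fibre level of the 6 arrays it read 46.5, 11.2, 32.8, 20.1, 57.4 and 55.7. The arrays in that order were hyperthyroid replicates 5 and 3, control replicate 8, hyperthyroid replicates 2 and 1 and control replicate 9. Mstn, within the same 6 arrays, had r = -0.74 and rho = -0.54 (exact permutation p = 0.104 and 0.297, 0.312 and 0.748 adjusted). Without hyperthyroid replicates 3 and 5 its r was 0.24, so that the relation within the 6 rested on them. Igf1 had r = -0.92 and rho = -0.60 (exact permutation p = 0.0167 and 0.242, 0.1 and 0.748 adjusted), and r = -0.24 without them. Igfbp6 had r = -0.77 and rho = -0.43 (exact permutation p = 0.0944 and 0.419, 0.312 and 0.77 adjusted), and r = 0.99 without them. For Igf2, Igf1r, Igfbp3, Igfbp4, Igfbp5 and Acvr2b, r within the 6 lay between -0.60 and 0.024. On these 6 arrays the slow-fibre and connective tissue means had r = -0.85 with each other, so the 2 lists cannot be told apart there. The labels name no batch, and 4 arrays per group are too few for a correlation within groups.

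**Figure D4:**
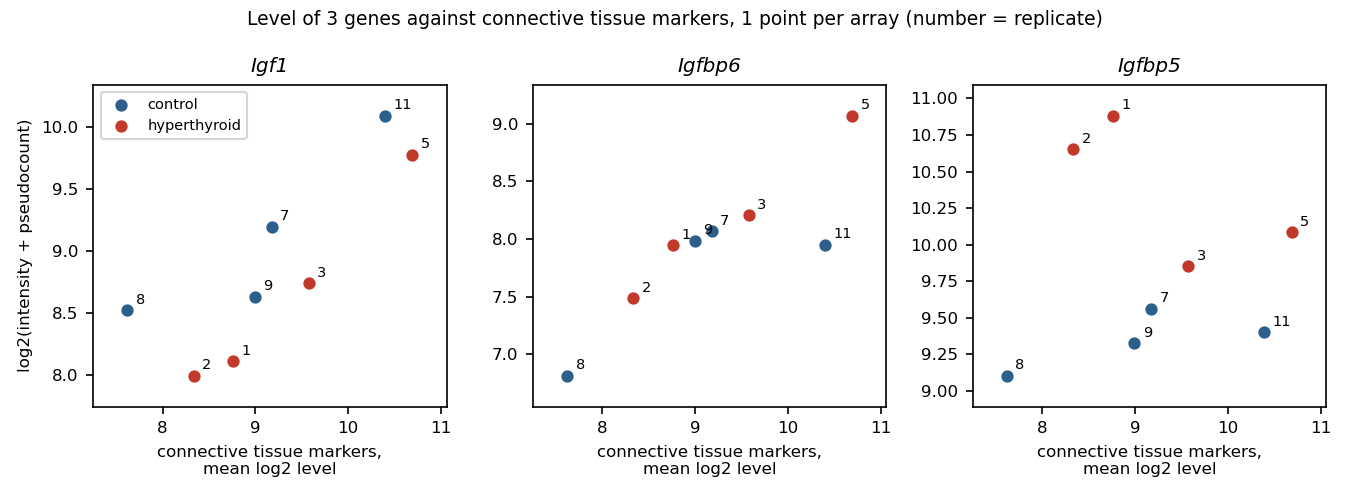
Log2 level of Igf1, Igfbp6 and Igfbp5 (brightest kept probe set) on each of 8 arrays against the mean log2 level of 10 connective tissue markers, controls in blue and hyperthyroid arrays in red, with the replicate number. Igf1 and Igfbp6 are higher where the markers are higher (r = 0.83 and 0.87), and Igfbp5 is not (r = -0.010).

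The genes around these members were then counted in 7 lists of the IGF and myostatin pathways, each gene by its brightest kept probe set. Of 87 of these genes with a probe set, 76 were tested. None was called, beside 0.049% of all 10200 genes tested, and 10 had an unadjusted limma p under 0.05 (6 higher and 4 lower in the hyperthyroid group), beside 10.4% of all genes (5.29% higher and 5.14% lower). The groups did not overlap for 7 of the 76, 5 higher and 2 lower, beside 6.55% of all genes (3.34% higher and 3.21% lower). Their median log2 fold change was 0.032, beside -0.00029 over all genes. Both shares are near those of all genes.

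In the list of IGF and growth hormone ligands, receptors and adaptors, 9 of 11 genes had a value below 0, with a median of -0.28, and -0.27 relative to all kept probe sets when scaled to the hybridization controls. Without control replicate 11 the median was -0.13. Igf2r, the receptor that removes IGF2 from the cell surface, was at 221, 234, 221 and 343 on hyperthyroid and at 483, 353, 394 and 399 on control arrays. The groups did not overlap, by a small margin, and the log2 fold change was -0.69 ± 0.19 (limma adjusted p = 0.291). Of the binding proteins and their proteases 5 of 8 tested were above 0, with a median of 0.17, and Igfbp5 alone had an unadjusted limma p under 0.05. That median was 0.042 without control replicate 8 and 0.41 without control replicate 11. In growth hormone signalling through JAK and STAT the median of 9 genes was 0.15. It was 0.0030 without hyperthyroid replicate 5 and -0.015 without control replicates 7 and 11. Socs1, a feedback inhibitor of cytokine receptors, was dim in both groups (10.4 ± 5.16 against 50.4 ± 13.8, SD, n = 4 each). Its hyperthyroid mean lay under the filter, so that it was kept through the controls alone, and 9 of 21 alternatives, each control left out among them, gave it no value. The fitted log2 fold change was -2.0 ± 0.64 (limma adjusted p = 0.354).

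Downstream of the IGF receptor, the PI3K, AKT and mTOR list was split evenly, with 10 of 20 genes above 0 and a median of 0.00074. Akt1 and Akt2, kinases that carry the growth signal, had log2 fold changes of 0.58 ± 0.18 and 0.58 ± 0.19, and Pdpk1, the kinase that activates them, had 0.43 ± 0.15. The limma adjusted p-values were 0.356, 0.366 and 0.398. Hyperthyroid arrays lay above all controls for each of these 3 genes, from 413 to 618 against 275 to 386 for Akt1, from 423 to 657 against 292 to 420 for Akt2 and from 1483 to 1943 against 940 to 1354 for Pdpk1. With all probe sets of a gene averaged, any under the filter included, the values were 0.17, -0.066 and 0.24. For Akt2 the sign turned. Rheb, the small GTPase that activates mTOR, had -0.27 ± 0.12 with overlapping groups (limma adjusted p = 0.497), and -0.25 relative to all kept probe sets when scaled to the hybridization controls. Rps6, a ribosomal protein that the pathway phosphorylates, also had groups that did not overlap, with a log2 fold change of 0.19 and a limma adjusted p of 0.611.

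Around myostatin, 7 of 9 ligand and processing genes were above 0 (median 0.17, and 0.053 without control replicate 9) and Mstn had the smallest p of them. Of the antagonists 3 of 7 were above 0 (median -0.28, and 0.14 without hyperthyroid replicate 2), and Tcap, a sarcomere protein that binds myostatin, had -0.41 ± 0.17 (limma adjusted p = 0.478), and -0.14 after quantile normalization. Of the receptors and SMADs 7 of 12 were above 0 (median 0.073). Smad3, which carries the signal of these receptors to the nucleus, was at 536 to 1290 on hyperthyroid and 427 to 696 on control arrays, which overlapped. Its log2 fold change was 0.83 ± 0.25 (limma adjusted p = 0.306), and -0.87 with all its probe sets averaged, any under the filter included. Skil, a repressor of SMAD-driven transcription, had 0.68 ± 0.29 (limma adjusted p = 0.478), and 0.40 without control replicate 11.

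**Figure D5:**
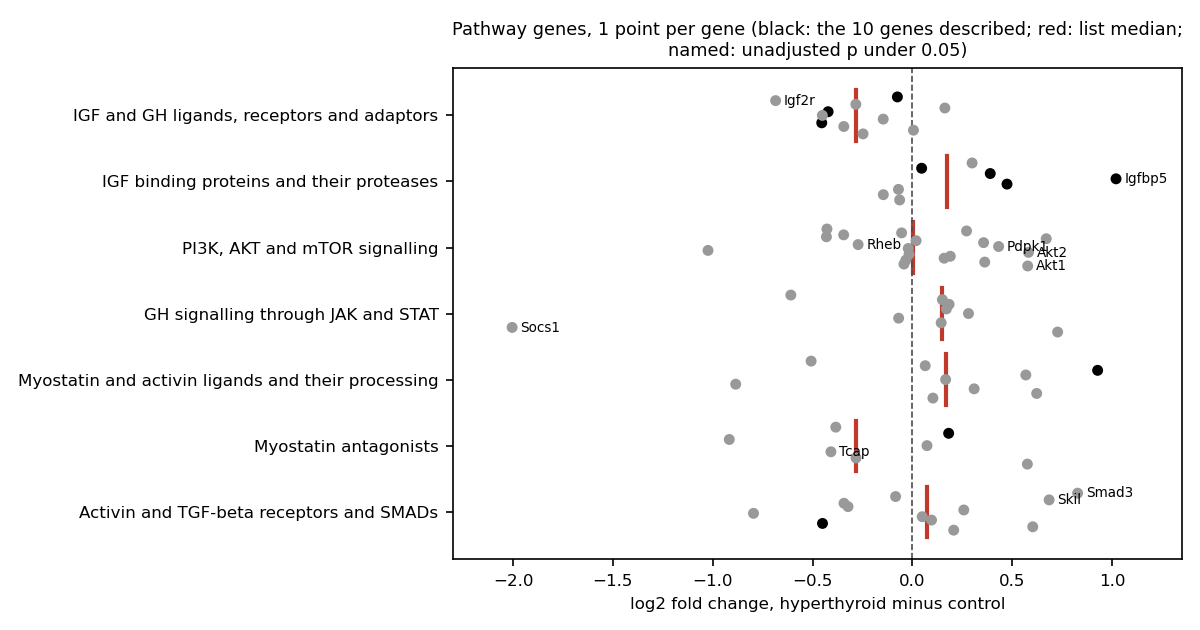
Log2 fold change (hyperthyroid minus control) of 76 pathway genes in 7 lists, 1 point per gene, the 10 genes described above in black and the median of each list as a red line. Genes with an unadjusted limma p under 0.05 are named, and the list medians lie between -0.28 and 0.17.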

How the data were processed

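RNA of tibialis anterior was labelled with biotin and hybridised to Affymetrix arrays. Each deposited value is a linear intensity, and GCOS is named in the submitters' processing notes, with no version or settings given in the sources used here. The mean after 2% was left out at each end was 150 on every array, so arrays had been scaled to 1 target. Such scaling hides a difference in total signal.

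The scale used was log2(intensity + 3.41), where 3.41 is the 10th percentile of the whole table. Of 31099 probe sets, 57 controls were left out, and 18625 with a mean log2 value above the 40th percentile (4.69) were tested with limma 3.58.1 in R 4.3.3 (lmFit, eBayes with a variance trend, two-sided, Benjamini-Hochberg). Low probe sets were fitted without the filter, for their values only. The fit was tested on simulated data. The number of arrays, 4 per group, limits precision. The limma p-values rest on the spread between these animals, moderated by that of other probe sets of like intensity (prior degrees of freedom 7.7).

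The 10 genes, the lists and the rule for named genes (all 10 genes, and up to 3 pathway genes of each list by p) were chosen with earlier results of these data known. Rheb, Rps6, the marker relations and Igfbp5's ratio of probe sets were chosen after their values were seen. Marker lists were endothelium, smooth muscle, Schwann cell, satellite cell, macrophage, adipocyte, T3 response, fast and slow fibre, and connective tissue. Their mean log2 levels were compared by exact permutation (70 assignments, smallest p 0.0286), and no list passed after adjustment (smallest adjusted p 0.19). Alternatives were quantile normalization, centring on medians, scaling to 18 hybridization control probe sets, a pseudocount at the 25th percentile, a floor at the 5th percentile, the filter dropped or raised to the 60th percentile, the variance trend dropped, robust variance, weighted arrays, gene means and arrays left out. Gene means took every probe set of a gene, any under the filter included, with equal weight on the log2 scale.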

Additional observations from a re-analysis of the deposited data

Results flagged for a closer look

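Among the 38 combinations of group and kept probe set, 4 held an array far from the other 3 of its group (Dixon's test on the log2 scale), where chance gives about 1 in 20. Mstn on control replicate 7 was at 46.8 and the other controls at 178 to 200. Igfbp6 on control replicate 8 was at 109 (1372168_s_at, the others 244 to 265) and 57.9 (1387625_at, the others 178 to 208). Igfbp3 on hyperthyroid replicate 2 was at 9.41 (1367652_at, the others 57.9 to 61.9).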

How the results depend on the processing

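No paired analysis was possible because the groups share no replicate number. The value of Igfbp5 stayed above 0 in all 21 alternatives (0.81 to 1.34, limma adjusted p from 0.0185 to 0.538) and passed under centring on medians and scaling to hybridization controls (1.24 and 1.34), where 1 of the 10 genes was called. Mstn, Igfbp4 and Igfbp6 also stayed above 0 and Acvr2b below 0 in all 21, none of them called. Signs turned for 5 genes, the cause was not tested, and none of these values was called. Igf1r was at 0.068, 0.14 and 0.22 under quantile normalization, centring and hybridization controls, where the median of all probe sets was 0.035, 0.21 and 0.30 (Igf1r relative to it 0.033, -0.068 and -0.081), 0.013 with array weights, and -0.49 to 0.31 with 1 array left out. Without control replicates 7 and 11 together, Igf1r, Igf1 and Igf2 were at 0.70, 0.079 and 0.059. Without the 2 arrays of highest Xist (hyperthyroid replicate 1 and control replicate 11) they were at 0.39, 0.054 and 0.0031. With probe sets averaged, Fst and Igfbp3 were at -0.40 and -0.58. With 1 array left out, Fst ran from -0.15 to 0.39 and Igfbp3 from -0.29 to 0.56.

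Members with an unadjusted limma p under 0.05 numbered 1, and 4 under hybridization controls, 2 under centring, no filter, array weights and without control replicates 7 and 11, and 1 to 3 with 1 array left out (3 without hyperthyroid replicate 5 or control replicate 9, 2 without hyperthyroid replicate 2 or control replicate 8). The share of all genes at such a p was 10.4% in the main fit and was not counted under the alternatives. Under centring and hybridization controls the median of all probe sets itself moved to 0.21 and 0.30. The changes in this count therefore cannot be read as particular to these genes. Of all probe sets, 6 passed, all higher. The count was 19 under centring and 118 under hybridization controls, all higher. It was 16 with no filter (15 higher, 1 lower), 22 with a robust variance (12 higher, 10 lower), 10 with array weights (1 lower) and 0 without the variance trend. It was 1 with gene means, 1 without control replicates 7 and 11, 2 without the arrays of highest Xist, and 0 to 5 with 1 array left out. The arrays whose absence moved it by over 1.5 times were hyperthyroid replicates 1, 2 and 3 and control replicates 7 and 8 (1, 3, 0, 0 and 2).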

Other observations

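The 2 brightest probe sets of Igfbp5 were set against each other within each array, a comparison chosen after their values were seen. The intensity of 1370960_at over that of 1387348_at gave hyperthyroid ratios of 1.80, 2.65, 2.02 and 1.71 (replicates 1, 2, 3 and 5). The control ratios were 1.33, 1.17, 1.43 and 0.76 (replicates 7, 8, 9 and 11). The groups did not overlap, and the mean log2 ratio differed by 0.82 (two-sided exact permutation p = 0.0286, the lowest value this design allows). This ratio does not change when a whole array is multiplied by 1 factor. Quantile normalization is not such a scaling, and the ratio was not taken under it. Since the pair was picked because one probe set differed between the groups and the other did not, the p is a description and no separate support. What each probe set detects was not tested.

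Of 9 tested genes of the T3 response list, 4 were higher and 1 lower in hyperthyroid rats at an unadjusted limma p under 0.05. Of all genes, 5.29% were higher and 5.14% lower at that p. None of the 9 passed after adjustment. The groups did not overlap for 2 higher and 1 lower, beside 3.34% and 3.21% of all genes. The lower gene was Atp2a1, also on the fast-fibre list, at 31053 to 37905 on hyperthyroid and 39113 to 48750 on control arrays. Its log2 fold change was -0.39 (limma adjusted p = 0.361). Thrsp, a thyroid hormone-responsive gene of lipogenesis, was at 71.5 to 94.1 on hyperthyroid and 10.6 to 45.0 on control arrays. The 4 higher genes were Hr, Thrsp, Atp1b2 and Gpd2, with log2 fold changes of 1.74, 1.68, 0.89 and 0.48. Their limma adjusted p-values were 0.385, 0.271, 0.364 and 0.446. Klf9, Me1, Ucp3 and Thrb had log2 fold changes of 0.12, 0.15, 0.16 and 0.29. Which genes of the list to print was decided after their values were seen.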
